A study of Homo sapiens with 18 samples.

Results

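The transcripts described here encode the MYC network, the family of DNA-binding proteins that pair with MAX or with MLX. The members were chosen by symbol: MYC, MAX, MXD1, MXI1, MXD3, MXD4, MNT, MLX, MLXIP and MGA, 10 of the 56269 genes in the deposited table. All 10 were listed, and all 10 were among the 13686 genes that passed a minimum of 10 for the average value across libraries and were tested. They were measured in IMR90 cells, a line of primary human lung fibroblasts. PBS cells received saline for 6 h, cNSF cells received 20 µg/ml of hyaluronan (HA) from naked mole-rat skin fibroblasts mixed with heat-inactivated hyaluronidase, and fNSF cells received the same dose of that HA after partial fragmentation by hyaluronidase. For each of these pre-incubations, 3 libraries came from cells collected at its end, and 3 came from cells that were then moved to medium containing tert-butyl hydroperoxide (tBHP, an oxidant, 200 µM for 1 h). These were harvested 6 h after tBHP was added. The cells with tBHP were thus collected later than the cells without it and after a change of medium, and these differences and tBHP itself cannot be told apart. All groups were the same cell line, and the study describes its replicates as biological.

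MYC activates genes for growth and ribosome production when it binds the E-box, a short DNA motif, as a dimer with MAX. MXD1, MXI1, MXD3, MXD4, MNT and MGA compete with MYC for MAX, and the MXD proteins and MNT bring the SIN3 and histone deacetylase corepressors to the same motif. MLX is a second hub: it pairs with MLXIP (MondoA), a sensor of glucose metabolites, and with some MXD proteins and MNT. In cultured fibroblasts MYC is known as an early gene of the response to growth factors, and the MXD genes as genes of cells that leave the cell cycle.

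Between 20261103 and 26287660 reads were counted on genes per library, and each value below is a normalized read count, the reads of a gene divided by the size factor of its library. All 10 fibroblast markers were detected in every library, with a summed value of at least 490059 that was mostly COL1A1, COL1A2 and VIM, while LUM was at 223 to 573. After tBHP in PBS cells LUM (-1.33 on the log2 scale), COL3A1 (-0.34) and DCN (-0.26) fell, PDGFRB rose (0.60) and the other 6 were not called; the part of these shifts in the results below was not tested. The summed epithelial markers reached at most 68.9 and the summed immune markers at most 19.0. The endothelial sum was 341 to 386 without tBHP and 395 to 674 after it, almost all of it TIE1, while CDH5 was at 0 in every library and VWF did not exceed 24.97. Libraries after tBHP were less alike than those without: the median SD within groups was 0.197 against 0.0715 on the log2 scale. Transcript GC content and length accounted for 2.20% of the within-group variance of the libraries without tBHP and for 36.3% of that of the libraries with it. For the tenth of tested genes with the highest GC content, the median deviation (log2) after tBHP was 0.31, -0.02 and 0.02 in replicates 1, 2 and 3 of PBS cells, 0.11, 0.13 and 0.33 in cNSF cells, and -0.20, -0.79 and 0.17 in fNSF cells. Replicate 2 of the fNSF cells with tBHP therefore stood apart. Among the members, MXD3 (67.2% GC), MXD4 (64.0%) and MNT (61.4%) were GC-rich, and MGA (42.0%), MXD1 (42.7%) and MXI1 (45.3%) lay below the median of tested genes (48.3%).

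Without tBHP, MYC was the most abundant member per length. Its level per kb of annotated exon was 489 ± 14.0 in PBS cells (SD, n = 3), followed by MLX (341 ± 8.16), MAX (202 ± 4.05), MXD4 (120 ± 6.34) and MGA (84.8 ± 1.76). MLXIP (60.7 ± 2.59) and MXD3 (56.6 ± 1.52) came next, and their ranges over libraries met without overlap (57.71 to 62.5 and 54.9 to 57.7). MNT (48.4 ± 0.775), MXD1 (25.8 ± 1.82) and MXI1 (19.5 ± 2.22) were the least abundant. The order of the 3 most abundant genes was the same when 1 transcript per gene was used as the length (the one tagged as principal in the annotation, or the longest where none was tagged), whereas MXD3 then rose from rank 7 to rank 5 and MXD1 and MXI1 changed places. In bulk RNA, a lower level can reflect fewer cells that express a gene or less RNA per cell, and these cannot be told apart.

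The first question was how the network responded to tBHP in cells that had received no HA. In PBS cells, 6 members were higher after tBHP at an adjusted p under 0.05 (limma, all genes adjusted together), namely MYC, MAX, MXD1, MXI1, MXD4 and MNT, and 1, MXD3, was lower. For comparison, 24.2% of all tested genes were called higher and 26.9% lower, so that the 6 of 10 called higher was above the background share and the 1 of 10 called lower was below it. The median log2 change of the members was 0.31, beside 0.0043 over all tested genes. MLX, MLXIP and MGA did not pass. The 3 values with and the 3 without tBHP did not overlap for 9 members, against 63.8% of tested genes, so most tested genes also showed no overlap in this comparison.

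**Figure D1:**
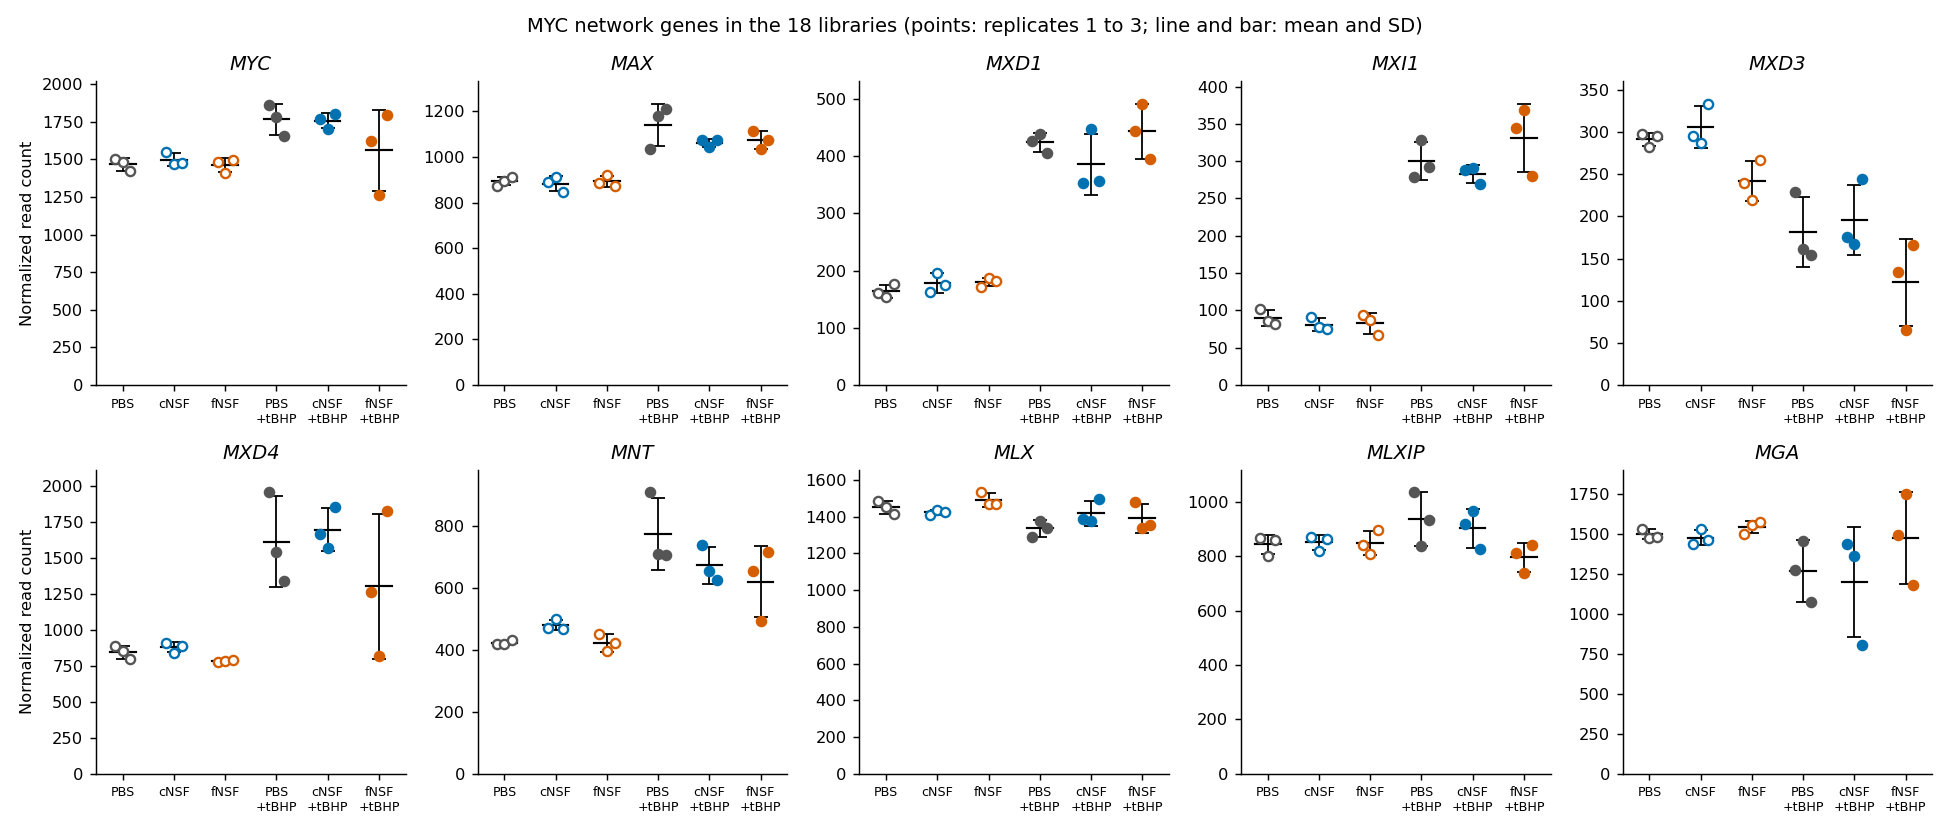
Normalized read counts of the 10 MYC network genes (y axes from 0, 1 panel per gene) in the 6 groups, with open points for libraries without tBHP, filled points for libraries after tBHP, a line for the mean and a bar for the SD of 3 libraries. MXD1 and MXI1 lie higher in every library after tBHP than in any without it, and MXD3 lies lower in all pre-incubations. The spread of MXD3, MXD4, MNT and MGA widens after tBHP in all pre-incubations, and that of MYC does so mainly in PBS and fNSF cells.

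MYC itself rose little. Its normalized read count in PBS cells was 1501, 1483 and 1421 without tBHP and 1862, 1783 and 1658 after it. All values with tBHP were above all without it, and the change was 0.27 on the log2 scale (SE 0.0936, adjusted p = 0.024). In cNSF cells MYC was at 1550, 1467 and 1477 before and 1766, 1703 and 1801 after, again without overlap (log2 change 0.23, adjusted p = 0.0488). In fNSF cells it was at 1480, 1410 and 1496 before and 1623, 1264 and 1794 after, so the groups overlapped through replicate 2, and the log2 change was 0.08 (adjusted p = 0.532). Without that library the fNSF change was 0.22 (adjusted p = 0.0106), and without replicate 3 it was -0.03. The call in PBS cells was lost without PBS replicate 2 (adjusted p = 0.0508) or 3 (0.0792) and without replicate 1 (0.0877) or 2 (0.0553) of PBS cells with tBHP. The call in cNSF cells was lost in 15 of the 18 fits with a library left out, among them each of the 6 cNSF libraries, with adjusted p up to 0.121, and with no filter on low values (0.0918). With the GC and length trend removed, the MYC change was 0.09 in PBS (adjusted p = 0.165), 0.03 in cNSF and -0.03 in fNSF cells, none of them called. That step also takes out any part of a tBHP response that follows GC content or length.

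MAX, the partner that MYC and its antagonists share, rose in all pre-incubations. Its normalized read count in PBS cells was 875, 896 and 911 without tBHP and 1037, 1178 and 1211 after it, a log2 change of 0.35 (SE 0.0687, adjusted p = 0.000378). In cNSF cells it went from 890.3, 913 and 847 to 1073, 1043 and 1074 (0.27, adjusted p = 0.00346), and in fNSF cells from 887, 921 and 871 to 1115, 1036 and 1076 (0.27, adjusted p = 0.00428). The groups did not overlap in any pre-incubation. The changes stayed called with the GC and length trend removed, at 0.23, 0.18 and 0.18.

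The largest responses of the network were those of MXI1 and MXD1, antagonists of MYC that occupy MAX. MXI1 stood at 101, 85.8 and 82.2 in PBS cells without tBHP and at 279, 329 and 292 after it. This was a log2 change of 1.73 (SE 0.139, adjusted p = 1.81e-08), or 3.32-fold on the log2(value + 1) scale. In cNSF cells MXI1 rose from 90.7, 77.2 and 75.5 to 288, 291 and 269 (log2 change 1.79, adjusted p = 1.35e-08). In fNSF cells it rose from 94.2, 86.7 and 67.1 to 345, 369 and 280.2 (1.99, adjusted p = 3.39e-09). Every library after tBHP was above every library without it. MXD1 was at 160.3, 154 and 176 in PBS cells and at 427, 439 and 406 after tBHP, a log2 change of 1.37 (SE 0.111, adjusted p = 1.96e-08) or 2.58-fold. In cNSF cells it went from 163, 196 and 175 to 353, 447 and 356 (1.10, adjusted p = 3.12e-07), and in fNSF cells from 172, 186 and 182 to 445, 491 and 395 (1.29, adjusted p = 4.78e-08). Both genes kept their calls in each of the 30 alternatives in every pre-incubation, and removal of the GC and length trend gave MXD1 changes of 1.58, 1.37 and 1.43 and MXI1 changes of 1.82, 1.85 and 2.00.

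MXD4 and MNT also rose in all pre-incubations, with a wider spread after tBHP. MXD4, the MXD gene with the highest level per length here, was at 887, 849 and 798 in PBS cells and at 1955, 1538 and 1338 after tBHP (log2 change 0.91, SE 0.188, adjusted p = 0.000593). In cNSF cells it rose from 906, 840 and 887 to 1664, 1568 and 1856 (0.95, adjusted p = 0.000444). In fNSF cells it went from 779, 779 and 792 to 1265, 819 and 1823, with replicate 2 close to the values without tBHP (0.66, adjusted p = 0.009; 0.0921 in a fit of the fNSF libraries alone). The fNSF change of MXD4 was 0.38 without replicate 3 with tBHP (adjusted p = 0.0473) and 0.95 without replicate 2. MNT, the antagonist that most proliferating cells express together with MYC, was at 418.1, 418.0 and 429.8 in PBS cells and at 908, 708 and 707 after tBHP (0.86, SE 0.122, adjusted p = 1.39e-05). Its values went from 470, 498 and 468 to 739, 653 and 624 in cNSF cells (0.48, adjusted p = 0.00306), and from 450, 395 and 420 to 653, 491 and 715 in fNSF cells (0.54, adjusted p = 0.00169). Removal of the GC and length trend gave changes of 0.58, 0.64 and 0.65 for MXD4 and of 0.56, 0.23 and 0.52 for MNT in PBS, cNSF and fNSF cells, and left both genes called in all pre-incubations.

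MXD3 moved the other way. This MXD gene is known for expression in cells in S phase rather than in resting cells. Its normalized read count in PBS cells was 297, 283 and 295 without tBHP and 229, 161 and 154 after it, a log2 change of -0.70 (SE 0.243, adjusted p = 0.022). In cNSF cells it went from 296, 287 and 334 to 176, 167 and 244 (-0.66, adjusted p = 0.031), and in fNSF cells from 239, 220 and 266 to 134, 64.9 and 166 (-1.08, adjusted p = 0.00156). The groups did not overlap in any pre-incubation. The PBS call was lost without PBS replicate 1 (adjusted p = 0.0549) or 3 (0.0544) and without replicate 2 (0.0689) or 3 (0.0848) of PBS cells with tBHP, and the cNSF call without any 1 of 5 of its own libraries, with adjusted p up to 0.107, or with no filter on low values (0.056). The fNSF change was -0.69 without replicate 2 with tBHP and -1.36 without replicate 3, and was called in both. With the GC and length trend removed the changes were -1.11, -1.13 and -1.11 and all were called. Of the exon bases of MXD3, 22.5% also lie in exons of PRELID1 on the opposite strand and 17.97% in exons of RAB24; the library kit does not mark strand and how shared reads were assigned is not given in the sources used here, so the MXD3 level is uncertain. PRELID1 changed by 0.19, 0.37 and 0.23 and RAB24 by 0.28, 0.48 and 0.09 in PBS, cNSF and fNSF cells, and of these only PRELID1 in cNSF cells passed (adjusted p = 0.00356).

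**Figure D2:**
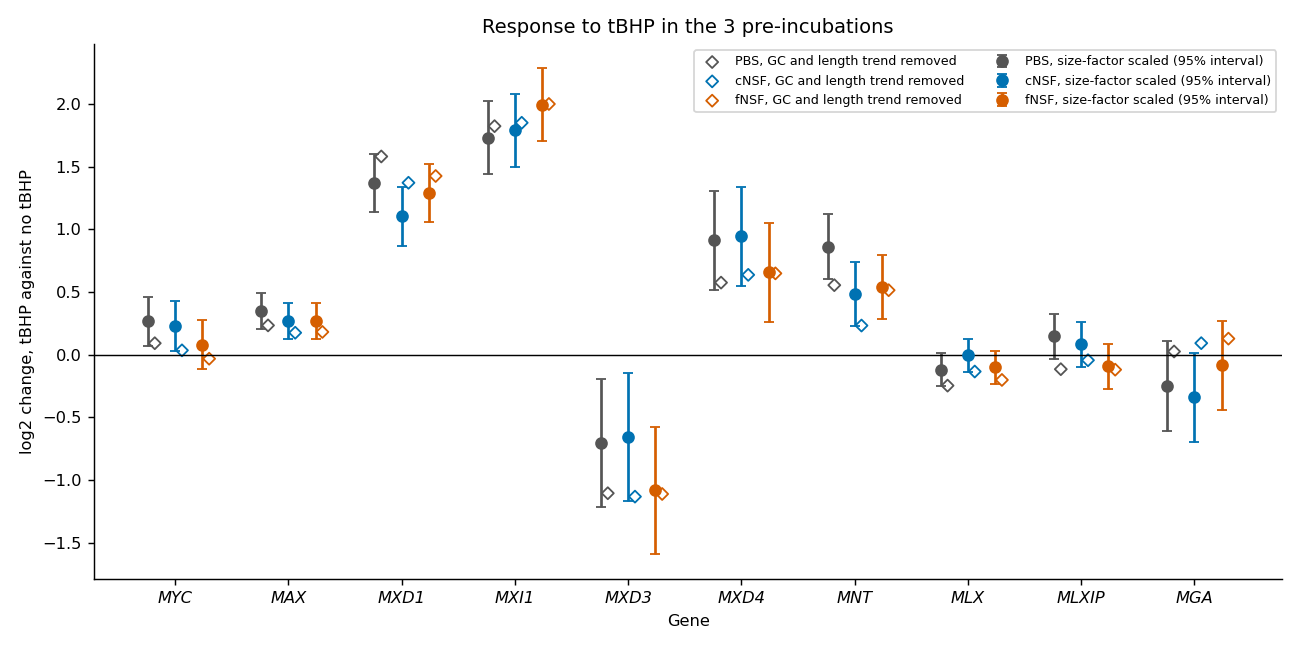
Change after tBHP (y axis, log2 of value + 1) of each MYC network gene (x axis) in PBS, cNSF and fNSF cells, with filled points and 95% intervals from limma and open diamonds for the change after removal of the trend with transcript GC content and length. MXI1 (1.73 to 1.99) and MXD1 (1.10 to 1.37) lie highest, MXD3 (-0.66 to -1.08) is the gene whose intervals lie below 0, and the diamonds of MYC lie near 0.

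The MLX branch and MGA showed no called change. MLX ranged from 1409 to 1533 without tBHP and from 1289 to 1496 after it. Its log2 changes were -0.12 in PBS cells (95% interval -0.25 to 0.01), -0.0046 in cNSF cells and -0.10 in fNSF cells. Its values in PBS cells did not overlap (1415 to 1484 before, 1289 to 1378 after), and with the GC and length trend removed MLX was lower in all pre-incubations (-0.25, -0.13 and -0.20, adjusted p = 7.87e-05, 0.0155 and 0.00068). MLX shares 18.1% of its exon bases with PSMC3IP on the opposite strand, a gene that rose (0.38, 0.56 and 0.37). MLXIP, the glucose-sensing partner of MLX, ranged from 802 to 896 without tBHP and from 738 to 1036 after it, with changes of 0.15, 0.08 and -0.09 (adjusted p = 0.165, 0.445 and 0.418). The PBS change of MLXIP was 0.22 without replicate 2 of PBS cells with tBHP (adjusted p = 0.0476), 0.07 without replicate 1, and turned to -0.12 with the trend removed. MGA, the scaffold of a Polycomb complex, was at 1533, 1477 and 1482 in PBS cells and at 1276, 1459 and 1072 after tBHP, lower without overlap, with a change of -0.25 (95% interval -0.61 to 0.11, adjusted p = 0.229, or 0.0447 in a fit of the PBS libraries alone) that became 0.03 with the trend removed. In cNSF cells MGA lay between 1436 and 1530 before tBHP and at 1439, 1362 and 808 after it, replicate 3 being the low library, with a change of -0.34 (adjusted p = 0.101) that became 0.09 with the trend removed. It was -0.08 without that low library (adjusted p = 0.654) and -0.49 without cNSF replicate 1 with tBHP (0.0298). In fNSF cells MGA was at 1497, 1751 and 1180 after tBHP, with a change of -0.08 that became 0.13 with the trend removed and 0.07 without replicate 3.

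The same members were called in cNSF as in PBS cells, with 6 higher and 1 lower, beside 24% of tested genes higher and 26.8% lower. In fNSF cells 5 were higher and 1 lower, with MYC the gene that no longer passed, beside 19.2% and 22.7%. The groups did not overlap for 7 members in cNSF and 6 in fNSF cells, beside 63.7% and 48.7% of tested genes. The differences between the responses were tested as interactions. No member and 0% of the tested genes passed between cNSF and PBS cells, between fNSF and PBS cells, or between cNSF and fNSF cells in limma. At an unadjusted p under 0.05 there was 1 member in the first of these, and 0 in the others, beside 555, 942 and 533 of the 13686 tested genes. The 1 member was MNT, whose response was 0.38 smaller on the log2 scale in cNSF than in PBS cells (SE 0.172, unadjusted p = 0.0414, adjusted p = 0.999). edgeR and DESeq2 also called 0 members in all 3. For MYC, the fNSF response was below the PBS response by 0.19 (95% interval of the difference -0.47 to 0.09). This difference was -0.04 without fNSF replicate 2 with tBHP and -0.30 without replicate 3.

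Because MYC and its antagonists share MAX, the levels were also set against each other per kb of exon. The ratio of MYC to the sum of MXD1, MXI1, MXD3, MXD4 and MNT was 1.79, 1.86 and 1.79 in PBS cells, 1.81, 1.75 and 1.71 in cNSF cells and 1.93, 1.91 and 1.95 in fNSF cells. After tBHP it was 1.12, 1.26 and 1.29 in PBS cells, 1.25, 1.23 and 1.21 in cNSF cells and 1.27, 1.23 and 1.21 in fNSF cells. Every library after tBHP was below every library without it. In PBS cells the level of MYC was 473 to 500 per kb before and 552 to 621 after, whereas the antagonist sum was 265 to 279 before and 428 to 553 after. With the principal transcript as the length (the longest where none was tagged) the ratio was 1.04 to 1.22 without tBHP and 0.779 to 0.914 after it. This sum leaves out MGA, which also competes for MAX and was not called. With MGA added, a choice made after the values were seen, the ratio was 1.33 to 1.45 without tBHP and 0.954 to 1.13 after it, a smaller fall that again left no overlap. The ratio concerns RNA, and protein was not measured.

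**Figure D3:**
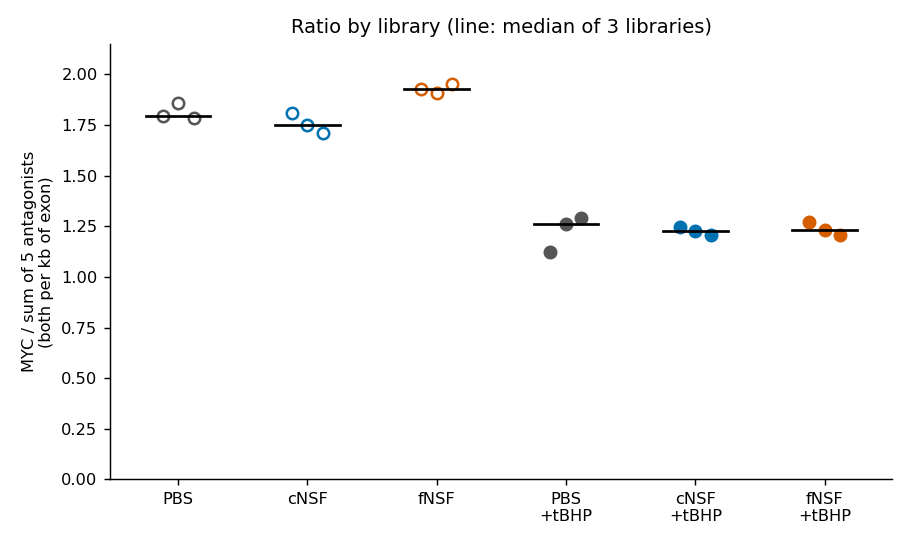
Ratio of the MYC level to the summed level of MXD1, MXI1, MXD3, MXD4 and MNT (y axis from 0, both as normalized read count per kb of exon) in each library of the 6 groups (x axis), with a line at the median of 3 libraries. The 9 libraries without tBHP lie between 1.71 and 1.95 and the 9 after tBHP between 1.12 and 1.29.

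The sequence upstream of the members was examined because MXD1, MXI1, MXD4, MNT and MAX rose together. RefSeq windows were found for 9 of the 10 members, 14 windows in all (GRCh38.p14), and not for MYC. The 250 bases before each start were searched on both strands for the E-box CACGTG, which reads the same on both strands, and for the core of the antioxidant response element, TGACNNNGC, a motif bound by NRF2. The E-box was present 1 time in the windows of MXD4, MNT and MLX, starting at bases -238, -193 and -50 from the start, and the antioxidant response element core 1 time in that of MXD1, at -208, where it lies on the other strand and is printed as its reverse complement. Of 35116 such windows of all genes, 6.35% held the E-box and 10.9% the core. Among the 14227 windows of tested genes these shares were 8.09% and 11.8%. MXD3, MAX, MLXIP, MGA and the 3 windows of MXI1, the gene with the largest rise, held neither. Shown are the windows with a match, up to the first base that GENCODE release 29 places in an exon, with the motif in capitals:
MXD1 (chr2:69914859-69915040, plus strand): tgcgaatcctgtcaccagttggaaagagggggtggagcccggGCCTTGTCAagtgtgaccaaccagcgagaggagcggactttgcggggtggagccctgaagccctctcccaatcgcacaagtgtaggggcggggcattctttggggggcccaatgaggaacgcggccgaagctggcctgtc
MXD4 (chr4:2262295-2262359, minus strand): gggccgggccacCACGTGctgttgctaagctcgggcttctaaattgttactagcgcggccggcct
MNT (chr17:2401119-2401310, minus strand): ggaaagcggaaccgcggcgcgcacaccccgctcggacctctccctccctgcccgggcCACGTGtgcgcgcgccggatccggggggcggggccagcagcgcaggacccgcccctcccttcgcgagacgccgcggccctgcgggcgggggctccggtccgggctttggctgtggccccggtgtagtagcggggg
MLX (chr17:42566850-42567067, plus strand): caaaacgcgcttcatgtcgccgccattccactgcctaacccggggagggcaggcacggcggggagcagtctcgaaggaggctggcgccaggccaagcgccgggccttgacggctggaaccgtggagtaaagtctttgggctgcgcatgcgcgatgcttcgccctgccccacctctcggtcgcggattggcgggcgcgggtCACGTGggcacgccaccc
Of the genes with an E-box, MXD4 and MNT rose after tBHP and MLX was not called, or was lower with the GC and length trend removed. A match is a run of letters, and binding was not measured.

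The next question was whether HA or its length moved the network. Without tBHP, no member passed in limma between cNSF and PBS, fNSF and PBS, or cNSF and fNSF cells (0% of tested genes in each), and 0 were called by edgeR or DESeq2. At an unadjusted p under 0.05 there were 0 members in each, beside 126, 109 and 206 of the 13686 tested genes. MYC differed by 0.04 between cNSF and fNSF cells (95% interval -0.16 to 0.23) and MAX by -0.02 (-0.16 to 0.13). The 3 values did not overlap between cNSF and fNSF cells for MXD3 (287 to 334 against 220 to 266), MXD4 (840 to 906 against 779 to 792) and MNT (468 to 498 against 395 to 450), all higher in cNSF cells, and for MLX (1409 to 1435 against 1467 to 1533), beside 25% of tested genes. The log2 differences were 0.34 for MXD3, 0.16 for MXD4 and 0.18 for MNT. Fitted on these 6 libraries alone, which leaves out the wider spread of the libraries with tBHP, MXD3 (adjusted p = 0.0122) and MXD4 (0.0311) passed, beside 7.16% of tested genes. With the GC and length trend removed the MXD3 difference was 0.19 and that of MXD4 was 0.07.

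After tBHP, no member passed between cNSF and PBS cells (0% of tested genes, 0 members in edgeR and DESeq2). At an unadjusted p under 0.05 there were 0 members, beside 1183 of the 13686 tested genes. Between fNSF and PBS cells no member passed, beside 0.139% of tested genes. MXD3, MNT and MLXIP had an unadjusted p under 0.05, as did 3102 of the 13686 tested genes. These 3 members were lower in fNSF cells by 0.65, 0.33 and 0.23 on the log2 scale (adjusted p = 0.154, 0.154 and 0.155). The values overlapped for all members, beside 12% of tested genes whose values did not. edgeR and DESeq2 called 0 members there. The differences of MXD3, MNT and MLXIP between fNSF and PBS cells were -0.20, -0.03 and -0.00079 with the GC and length trend removed.

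Between cNSF and fNSF cells after tBHP, the comparison of intact with fragmented HA in stressed cells, no member passed in limma or edgeR (0% of tested genes). At an unadjusted p under 0.05 there were 2 members, beside 4412 of the 13686 tested genes. MXD3 was higher in cNSF cells by 0.76 (95% interval 0.25 to 1.27, adjusted p = 0.0981), with 176, 167 and 244 against 134, 64.9 and 166 and no overlap, as for 13.4% of tested genes. MXD4 was higher by 0.45 (0.06 to 0.85, adjusted p = 0.117), with fNSF replicates 1 and 2 below and replicate 3 among the cNSF values. The intervals use a spread shared with the libraries without tBHP, which were more alike, so they may be too narrow here. DESeq2 called 1 member, MXD3 (0.69, adjusted p = 0.0459), beside 6.74% of tested genes. MYC differed by 0.19 (-0.01 to 0.38), MXD1 by -0.21 (-0.44 to 0.03), MXI1 by -0.22 (-0.51 to 0.07) and MGA by -0.32 (-0.68 to 0.03).

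Some of these values moved with the GC trend of the libraries. In fNSF replicate 2 with tBHP, where GC-rich transcripts were low (-0.79), the GC-rich members MXD3 (64.9), MXD4 (819) and MNT (491) had their lowest values after tBHP and MGA (1751), the member with the lowest GC content, its highest. In cNSF replicate 3 with tBHP, where GC-rich transcripts were high (0.33), MXD3 (244) and MXD4 (1856) were the highest of the cNSF values after tBHP and MGA (808) the lowest, but MNT (624) was also the lowest. With the GC and length trend removed, the difference between cNSF and fNSF cells after tBHP was 0.17 for MXD3 (adjusted p = 0.398), 0.05 for MXD4, -0.16 for MNT, 0.08 for MYC and -0.06 for MGA. Without fNSF replicate 3 with tBHP, 4 members passed: MYC (0.29), MXD3 (1.04) and MXD4 (0.73) were higher and MGA (-0.47) was lower in cNSF cells, while 40.8% of all tested genes passed. Without fNSF replicate 2 with tBHP, the differences were 0.04 for MYC, 0.37 for MXD3 and 0.16 for MXD4, and none passed (adjusted p = 0.833, 0.572 and 0.679). That of MGA was -0.06 without cNSF replicate 3 with tBHP. The comparison of fNSF with PBS cells uses the same fNSF libraries. When fNSF replicate 3 with tBHP was left out of it, 5 members, MYC, MXD3, MXD4, MNT and MLXIP, were lower in fNSF than in PBS cells, beside 29.4% of tested genes. Without fNSF replicate 2 with tBHP they differed from PBS cells by -0.05 (MYC), -0.26 (MXD3), -0.07 (MXD4), -0.17 (MNT) and -0.18 (MLXIP), none of them called.

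**Figure D4:**
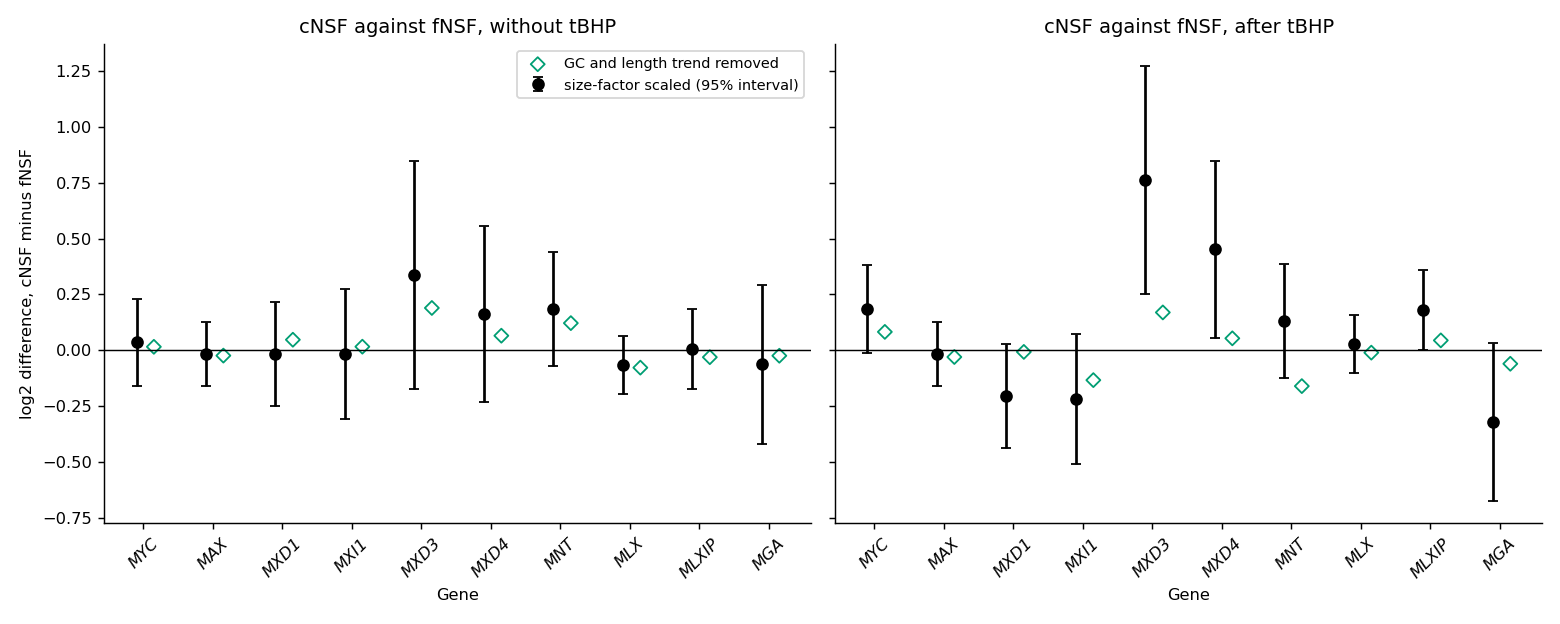
Difference between cNSF and fNSF cells (y axis, log2 of value + 1) for each MYC network gene (x axis) without tBHP (left) and after tBHP (right), as filled points with 95% intervals and as open diamonds after removal of the GC and length trend. After tBHP the intervals of MXD3 (0.25 to 1.27) and MXD4 (0.06 to 0.85) lie above 0, and their diamonds lie at 0.17 and 0.05. All intervals use a spread shared by all libraries, which were less alike after tBHP, so those on the right may be too narrow.

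The genes that work with the network were described by lists, for the tBHP response in PBS cells, where 24.2% of tested genes were called higher, 26.9% lower, and the median change was 0.0043. Of the paralogs outside the member list, MYCN had at most 1.03 normalized reads in any library and MLXIPL at most 4.06, both under the filter. MYCL, a weaker relative of MYC, was at 34.8, 38.3 and 30.3 in PBS cells and at 21.6, 9.80 and 18.6 after tBHP (log2 change -1.07, adjusted p = 0.00279). It was not called in cNSF (-0.47) or fNSF cells (-0.60), but was in both with the GC and length trend removed (-0.65 and -0.69, adjusted p = 0.0416 and 0.031).

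Of 12 coactivators of MYC, 4 rose and 2 fell, with a median change of 0.12. KAT5, a histone acetyltransferase (0.55), was among those that rose, and ACTL6A (-0.37) and WDR5 (-0.18), which anchors MYC to chromatin, fell. Of 10 genes that act on MYC protein turnover, 1 rose and 4 fell, with a median of 0.04. The riser was PIM1, a kinase that stabilizes MYC (0.74), and the largest falls were CIP2A, listed as KIAA1524, an inhibitor of MYC dephosphorylation (-1.31), and SKP2, a ubiquitin ligase subunit (-0.92). Of 11 genes of the corepressor complexes, 3 rose and 3 fell (median 0.06): SIN3A, the scaffold that MXD proteins bind (0.61), and SAP18 (0.47) rose, while SAP30 (-0.77) and HDAC2 (-0.48) fell. Of 8 further subunits of the MGA complex, 0 rose and 3 fell (median -0.10), the largest falls being those of CBX3 (-0.79) and RNF2 (-0.61). Removal of the GC and length trend ended the calls of HDAC2 (-0.02, adjusted p = 0.836) and RNF2 (-0.13, adjusted p = 0.174) and lowered the changes of CBX3 (-0.39), SKP2 (-0.61), KAT5 (0.30) and ACTL6A (-0.14), while that of WDR5 grew (-0.38). WDR5 was not called in edgeR (-0.12, adjusted p = 0.193). With it removed, when 28.5% of the genes fitted were called higher and 29.6% lower, 4 coactivators rose and 5 fell, 5 corepressor genes rose and 3 fell, and 2 subunits of the MGA complex rose and 2 fell. For 9 of the turnover genes, without CIP2A, which had no transcript under that symbol in the annotation, 3 rose and 3 fell.

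Of 30 genes described as activated by MYC, many of them for ribosome biogenesis, 2 rose and 14 fell, with a median of -0.24. POLR1B, a subunit of RNA polymerase I (-0.86), and RRS1, a ribosome assembly factor (-0.76), fell most, and CCND2 (0.60), a cyclin, and FBL (0.41), a nucleolar methyltransferase, rose. In cNSF cells 2 rose and 11 fell, and in fNSF cells 3 rose and 14 fell. In edgeR 3 rose and 12 fell in PBS cells (29.7% and 23.5% of tested genes) and 8 rose and 9 fell in cNSF cells (28.8% and 23.8%). With the GC and length trend removed 3 rose and 17 fell in PBS cells, beside 28.5% and 29.6% of the genes fitted, and FBL was no longer called (0.15). Of 8 genes listed as repressed by MYC, 7 were tested: 6 rose and 1 fell (median 0.60). The 6 include ZBTB17 (0.42), which was on the list although it is a MYC partner. The counts were the same in cNSF cells, and 5 rose and 1 fell in fNSF cells and in PBS cells with the trend removed, ZBTB17 being the gene not called (0.13 and 0.12). CDKN1A (p21), also a p53 target (3.06), and NDRG1, also a stress-response gene (2.89), rose most, and GAS1 fell (-1.40, from 36.8 ± 2.30 to 14.4 ± 6.52). Of the targets of MLX with MLXIP, TXNIP, an inhibitor of glucose uptake, was at 1187, 1201 and 1225 in PBS cells and at 1733, 2095 and 1916 after tBHP (0.66, adjusted p = 1.99e-06). Its relative ARRDC4 was at 325, 319 and 301 before and at 413, 499 and 488 after (0.56, adjusted p = 0.00012). Both also rose in cNSF cells (0.44 and 0.24) and fNSF cells (0.78 and 0.64). The same response called 2 of the 5 endothelial markers higher, TIE1 (0.71) and VWF (1.32), with PECAM1 and CDH5 at or near 0, and their part in these results was not tested.

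**Figure D5:**
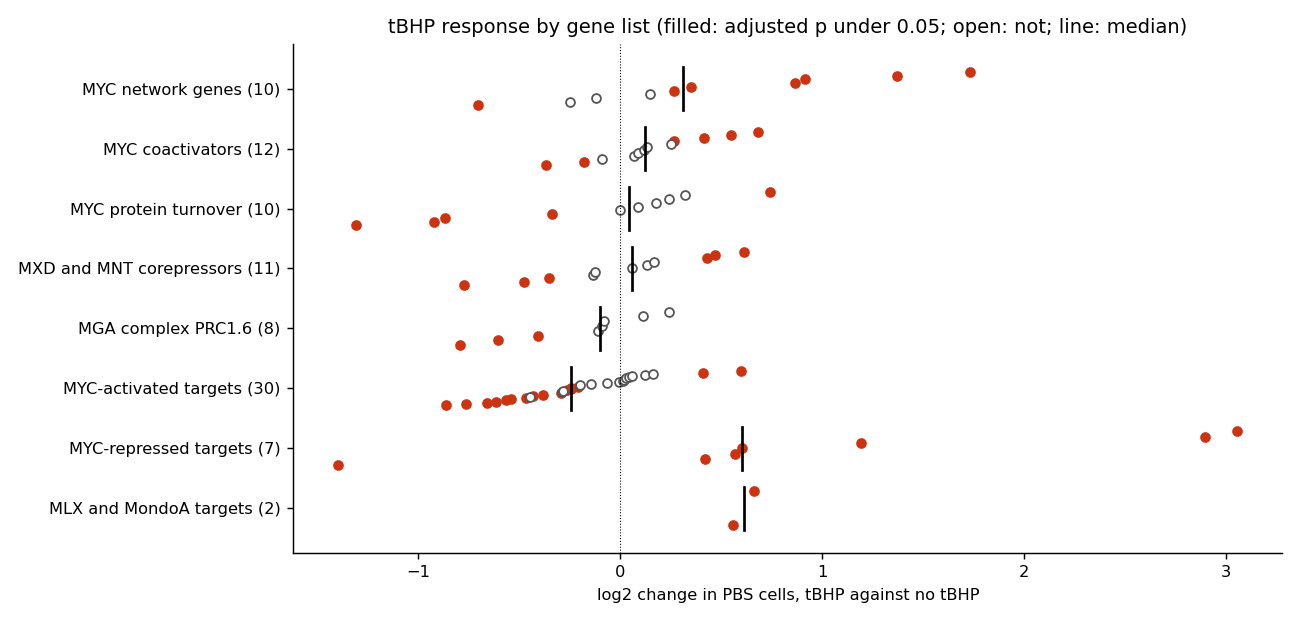
Change after tBHP in PBS cells (x axis, log2 of value + 1) of each tested gene of the MYC network and of the lists of partners and targets (y axis, number of genes in brackets), filled where limma's adjusted p was under 0.05, with a line at the median of each list. MYCL (-1.07) is not plotted. Among the lists shown, medians run from -0.24 in the MYC-activated list to 0.61 in the pair of MLX targets, and CDKN1A and NDRG1 lie farthest right.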

How the data were processed

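The authors prepared polyA RNA libraries from 18 samples with the TruSeq RNA V2 kit and sequenced single-end reads of 100 nt. The submitters' processing notes name Trimmomatic 0.32, STAR 2.5.2b, featureCounts, Subread 1.5.0-p3, DESeq2 and the build GRCh38.p7; the gene annotation and the counting parameters are not given in the sources used here. The signal that the authors deposited is a read count that DESeq2 had scaled by a size factor per library. All values (100%) were whole multiples of 1 read within 0.01 of a read, so the reads were recovered. The table also holds p-values, q-values and a rank score of the p-values, deposited by the authors for a comparison that is not named, which were not used.

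Log2 values after adding 1 were fitted in limma 3.58.1 (R 4.3.3) with a trended prior variance and a coefficient for each group, all libraries sharing 1 spread, two-sided tests and Benjamini-Hochberg adjustment over 13686 genes (threshold 0.05). This scale understates changes of genes with low values. Alternatives were pseudocounts of 0.1 and 5, no filter and a minimum of 50, a shared median ratio, quantile normalization, edgeR 4.0.16 (quasi-likelihood) and DESeq2 1.42.0 on recovered reads, a fit of the compared groups only, a replicate block, removal of each library's trend against transcript GC and length (5 df natural splines on GENCODE release 29, for 91.4% of tested genes), and each library left out in turn. The tests were checked on simulated counts with known changes and the same spread in all groups, so the check does not cover the wider spread after tBHP. Between replicates the chi-square per degree of freedom was 1.45 to 2.55 without tBHP and 2.72 to 64.8 after it, and no pair was identical. The replicate numbers were not used as pairs. The members and gene lists were chosen with earlier results of these data known. All members are named, with the genes of each list that rose or fell most among those called in PBS cells (up to 2 each way), and all genes of lists of up to 3. A gene that this rule names is not reported here. TIE1, VWF, CDH5, PECAM1, PRELID1, RAB24, PSMC3IP, ZBTB17 and the single fibroblast markers were named after their values were seen. Promoter windows came from RefSeq (GRCh38.p14).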

Additional observations from a re-analysis of the deposited data

How the results depend on the processing

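The counts of members called in the tBHP responses stayed within 1.5 times in every alternative: 5 to 8 in PBS and in cNSF cells and 5 to 7 in fNSF cells. Of the comparisons of HA groups, the count of 0 changed between cNSF and fNSF cells without tBHP (2 in a fit of these groups only), between cNSF and fNSF cells after tBHP (1 in DESeq2; 0 to 4 with a library left out) and between fNSF and PBS cells after tBHP (0 to 5 with a library left out), the highest counts being those without fNSF replicate 3 with tBHP. The cause was not tested.

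Of the 900 repeats of the 30 member responses, 835 kept direction and side of the threshold, 35 were no longer called, 11 became called and 19 changed sign, all of the latter in responses that were not called. With the GC and length trend removed, with or without the replicate block, the changes of sign were those of MLXIP (-0.1155 in PBS and -0.044 in cNSF cells), MGA (0.0257, 0.0924 and 0.128 in PBS, cNSF and fNSF cells) and MYC in fNSF cells (-0.0319). With a library left out, the fNSF response ranged from -0.0294 to 0.223 for MYC and from -0.216 to 0.0689 for MGA, the ends being the fits without fNSF replicate 3 or 2 with tBHP, and the cNSF response of MLX from -0.0433 to 0.0182. MLX in cNSF cells was at 0.0025 with quantile normalization and 0.0555 in edgeR.

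The replicate numbers share no stated origin, and the correlations of same-numbered deviations ran from -0.12 to 0.33 (6 of 27 over 0.1). With the replicate block 8 members were called in cNSF cells, the added gene being MGA (adjusted p = 0.0481), and it changed no other call. MYC lost its calls in PBS (0.09) and cNSF cells (0.03) with the GC and length trend removed, where MLX gained calls in all pre-incubations. The lowest value of any member in any library was 64.9 (MXD3).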
